A study of Homo sapiens with 2 samples.

Results

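The genes described here are 41 nuclear genes whose products copy, transcribe, process, stabilise, degrade or modify the nucleic acids of human mitochondria, together with the nuclear regulators of that set. They were taken by name from the protein-coding rows of a table of 58735 genes, all 41 were found, and 40 reached a mean of 1 FPKM (fragments per kilobase of gene, relative to library size) over both libraries and are called measured. The exception was PPARGC1A. The table compares 1 control library with 1 library of cells that received TDCPP, a chlorinated organophosphate flame retardant, together with titanium dioxide nanoparticles for 24 h. Both come from cells labelled SH-SY5Y, a neuroblastoma line grown in serum-containing medium. The labels give no dose, no vehicle, no library of either agent alone and no replicate, so no difference between the libraries has a replicate check and no test of the exposure was possible. Each ratio is exposed over control, and its interval is an exact 95% interval of the reads, which covers counting error only.

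Mitochondrial DNA is a small circle copied by POLG with the helicase TWNK and the single-strand binding protein SSBP1. It is transcribed from both strands by POLRMT with TFAM and TFB2M into long precursors, in which transfer RNAs separate most messages and are cut out by RNase P and by the RNase Z enzyme ELAC2. The messages are then polyadenylated by MTPAP, stabilised by LRPPRC with SLIRP, handled by proteins of the FASTK family, and degraded by PNPT1 with SUPV3L1. Much of this machinery is under the control of the nuclear factors NRF1 and GABPA (an ETS factor), with PPARGC1A, PPARGC1B and ESRRA acting on the same programme. Their genes are nuclear and are translated in the cytosol.

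The libraries held 16471438 reads in the control and 15315572 reads in the exposed sample. The label was checked against 12 markers of noradrenergic neuroblastoma cells: 3 of them reached a mean of 1 FPKM (GATA3, ISL1 and HAND2), while PHOX2A, TH, STMN2 and ELAVL4 had 0 reads in both libraries, and the list summed to 9.80 and 7.17 FPKM. Of 7 mesenchymal neuroblastoma markers 6 reached that level (summed 122 and 107 FPKM), the exception being PRRX1 (0.652 and 0.454 FPKM). So did 4 of 7 renal markers (20.7 and 13.7 FPKM), 2 of 5 fibroblast markers (9.04 and 4.64 FPKM) and 0 of 5 glial markers (0.971 and 1.26 FPKM). The noradrenergic markers thus give little support to the label, and the other lists do not settle what the cells were. The part of these differences in the results below was not tested.

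Of 5 sets of motif letters searched in the promoters, those of ETS factors, the class to which GABPA belongs, were found in the most genes. They are also the shortest of the 5 and the most frequent among all genes with a window (12.2%), so this rank is not particular to the set. RefSeq start windows (GRCh38.p14, 250 bases before to 50 after a start) were matched for 37 of the 41 genes, and those of FASTKD5, MTERF3, NRF1 and TWNK were not matched. The windows of 5 genes are shown because they cover genes with low ratios and genes with ratios near 1: TRMT10C, which encodes a subunit of RNase P, and ELAC2, which had some of the lowest ratios, MRM2 and LRPPRC, which were not lower, and TFAM. Only the 250 bases upstream of the start are printed, 5′ to 3′ on the gene's own strand, and capitals mark the ETS letters CCGGAAG or the NRF1 letters GCGCANGCG on either strand.
TRMT10C promoter, chr3:101561618-101561867, plus strand: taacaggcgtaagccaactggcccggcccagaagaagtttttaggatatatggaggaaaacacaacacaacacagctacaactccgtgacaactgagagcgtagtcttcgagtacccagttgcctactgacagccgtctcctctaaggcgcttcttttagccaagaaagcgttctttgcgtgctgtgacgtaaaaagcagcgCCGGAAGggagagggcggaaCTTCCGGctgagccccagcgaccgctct
ELAC2 promoter, chr17:13018028-13018277, minus strand: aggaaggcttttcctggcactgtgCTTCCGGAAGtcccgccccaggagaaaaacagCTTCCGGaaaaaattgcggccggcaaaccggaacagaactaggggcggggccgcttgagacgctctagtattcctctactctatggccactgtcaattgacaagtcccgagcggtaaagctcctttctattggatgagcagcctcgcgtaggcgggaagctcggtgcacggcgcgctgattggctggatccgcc
MRM2 promoter, chr7:2242206-2242455, minus strand: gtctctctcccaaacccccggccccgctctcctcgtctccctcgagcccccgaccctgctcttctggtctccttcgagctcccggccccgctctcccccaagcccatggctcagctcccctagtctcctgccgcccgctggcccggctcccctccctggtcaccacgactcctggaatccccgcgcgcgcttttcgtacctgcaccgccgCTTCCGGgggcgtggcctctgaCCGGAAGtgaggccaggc
TFAM promoter, chr10:58385160-58385409, plus strand: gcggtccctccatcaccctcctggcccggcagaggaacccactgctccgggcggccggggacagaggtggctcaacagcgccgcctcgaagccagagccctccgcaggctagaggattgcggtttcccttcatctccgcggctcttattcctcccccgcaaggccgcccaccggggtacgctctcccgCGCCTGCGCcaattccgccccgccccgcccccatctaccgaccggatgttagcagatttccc
LRPPRC promoter, chr2:43995990-43996239, minus strand: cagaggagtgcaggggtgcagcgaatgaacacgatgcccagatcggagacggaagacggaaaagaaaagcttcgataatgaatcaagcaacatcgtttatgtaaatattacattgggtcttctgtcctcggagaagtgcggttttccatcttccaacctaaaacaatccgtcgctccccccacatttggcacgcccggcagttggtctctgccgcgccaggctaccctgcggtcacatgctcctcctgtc

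The ETS letters stood in the window of 15 of the 37 genes (40.5%), compared with 12.2% of all 27305 genes with a window and 23.4% of the measured genes. The NRF1 letters stood in 9 of 37 (24.3%), compared with 9.02% of all genes and 17.8% of measured genes. TFB1M, POLRMT, POLG2 and MRM1 held both. The matches on opposite strands overlap each other at the first ETS site of ELAC2 and at the NRF1 sites of TFB1M and POLRMT. YY1 letters (AANATGGCG) stood in 4 of 37 genes (10.8%), compared with 3.85% of all genes and 8.69% of measured genes. The letters of estrogen-related receptors (TNAAGGTCA) and of the C/EBP-ATF composite element (TGATGCAAT or TGATGAAAT) stood in 0 of 37, and in 1.17% and 0.648% of all genes. Measured genes of the set with ETS letters had a median log2 ratio of -0.30 (n = 15) and those without had -0.14 (n = 21), while the same split of all measured genes gave -0.04 and -0.05. The NRF1 letters split the set the other way, with -0.13 (n = 9) and -0.18 (n = 27), and the YY1 letters gave -0.17 for both sides (n = 4 and 32). Genes with the letters included MRM2 at a ratio of 1.07 and TRMT10C at 0.721, and the letters are a description of these windows, not of binding.

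As a set, the genes were slightly lower in the exposed library. The log2 ratio, log2((exposed FPKM + 1)/(control FPKM + 1)), had a median of -0.16 over the 40 measured genes and -0.16 over all 41, beside -0.05 for all 11409 measured protein-coding genes. In bulk RNA a smaller share of cells and less RNA per cell cannot be told apart. The middle 50% of the set ran from -0.32 to -0.02, and that of all measured genes from -0.22 to 0.12. Of the 40, 28 lay below the median of all measured genes. Only FASTKD5 was at least 1.5-fold lower (1 of 40; background 2.16%) and 0 of 40 were at least 1.5-fold higher (background 2.53%). The log2 ratio of FASTKD5, -0.69, became -0.58 with equal FPKM sums and -0.56 with a pseudocount of 5, both just short of the -0.585 that marks 1.5-fold.

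At a smaller step, a log2 ratio of -0.3219 or less (a ratio of 0.8 with the pseudocount), 10 of 40 genes were lower, compared with 13.5% of all measured genes, and 0 of 40 were higher by that step, compared with 8.98%. The 10 were FASTKD5, TRMT10C, ELAC2, SLIRP, MTERF1, PDE12, TFB2M, HSD17B10, GABPA and TFAM. The counting interval lay below 1 for 21 of 40 genes, beside 36.0% of all measured genes, and above 1 for 1 of 40 (LRPPRC), beside 21.5%. The counting intervals given here and below are those of the deposited scaling and were not recomputed under others. Equal FPKM sums multiply the exposed values by 1.09 and raise every interval by that factor. Fewer intervals would then lie below 1 and more above it, in the set as in all genes. Scaling also mattered for the count at the smaller step. When the FPKM of both libraries were brought to equal sums, the median of all measured genes moved by 0.11 in log2, the set median became -0.04 and 4 genes stayed at or under the smaller step, beside 6.78% of all measured genes. Relative to the median of all genes the set lay at -0.11 as deposited and at -0.10 with equal sums.

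**Figure D1:**
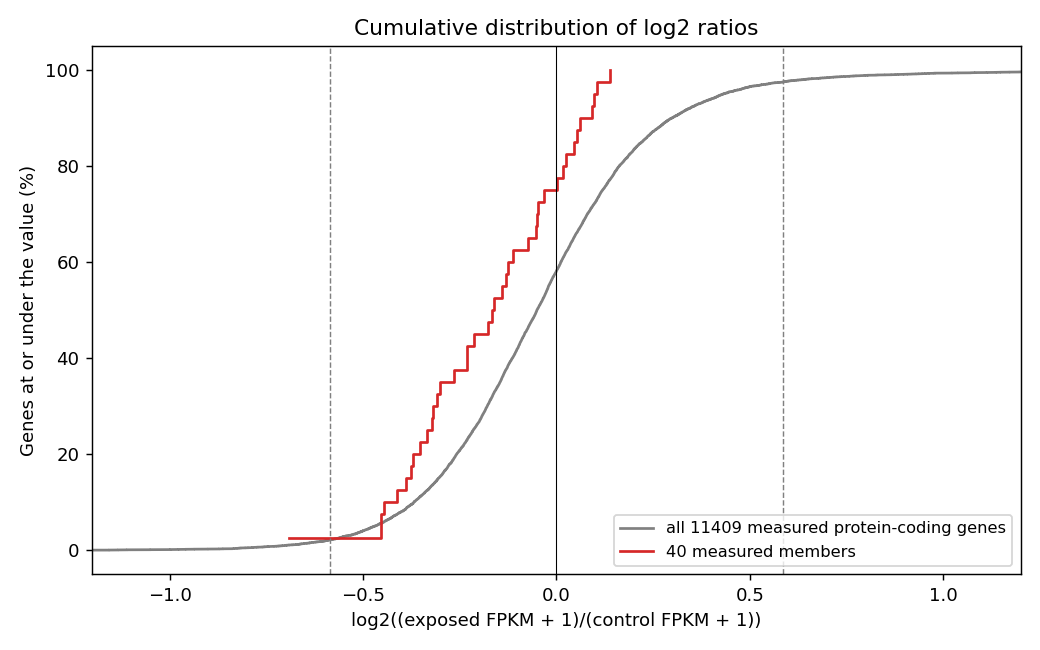
Cumulative percentage of genes (vertical axis) at or under each log2 ratio with a pseudocount of 1 FPKM (horizontal axis, shown from -1.2 to 1.2), for 40 measured members (red) and all 11409 measured protein-coding genes (grey); dashed lines mark 1.5-fold. The red line lies left of the grey one through most of its range and ends before the upper dashed line, with medians of -0.16 and -0.05.

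Ordered by level, HSD17B10 (45.7 and 35.1 FPKM), LRPPRC (45.0 and 46.5), MGME1 (41.9 and 37.4) and TFAM (34.1 and 26.8) were the most abundant per length. PPARGC1A (0.851 and 0.677), PPARGC1B (2.81 and 2.17) and MTERF4 (2.96 and 2.51) were the least abundant. Added over the 41 genes, the levels came to 594 FPKM without and 513 FPKM with exposure.

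**Figure D2:**
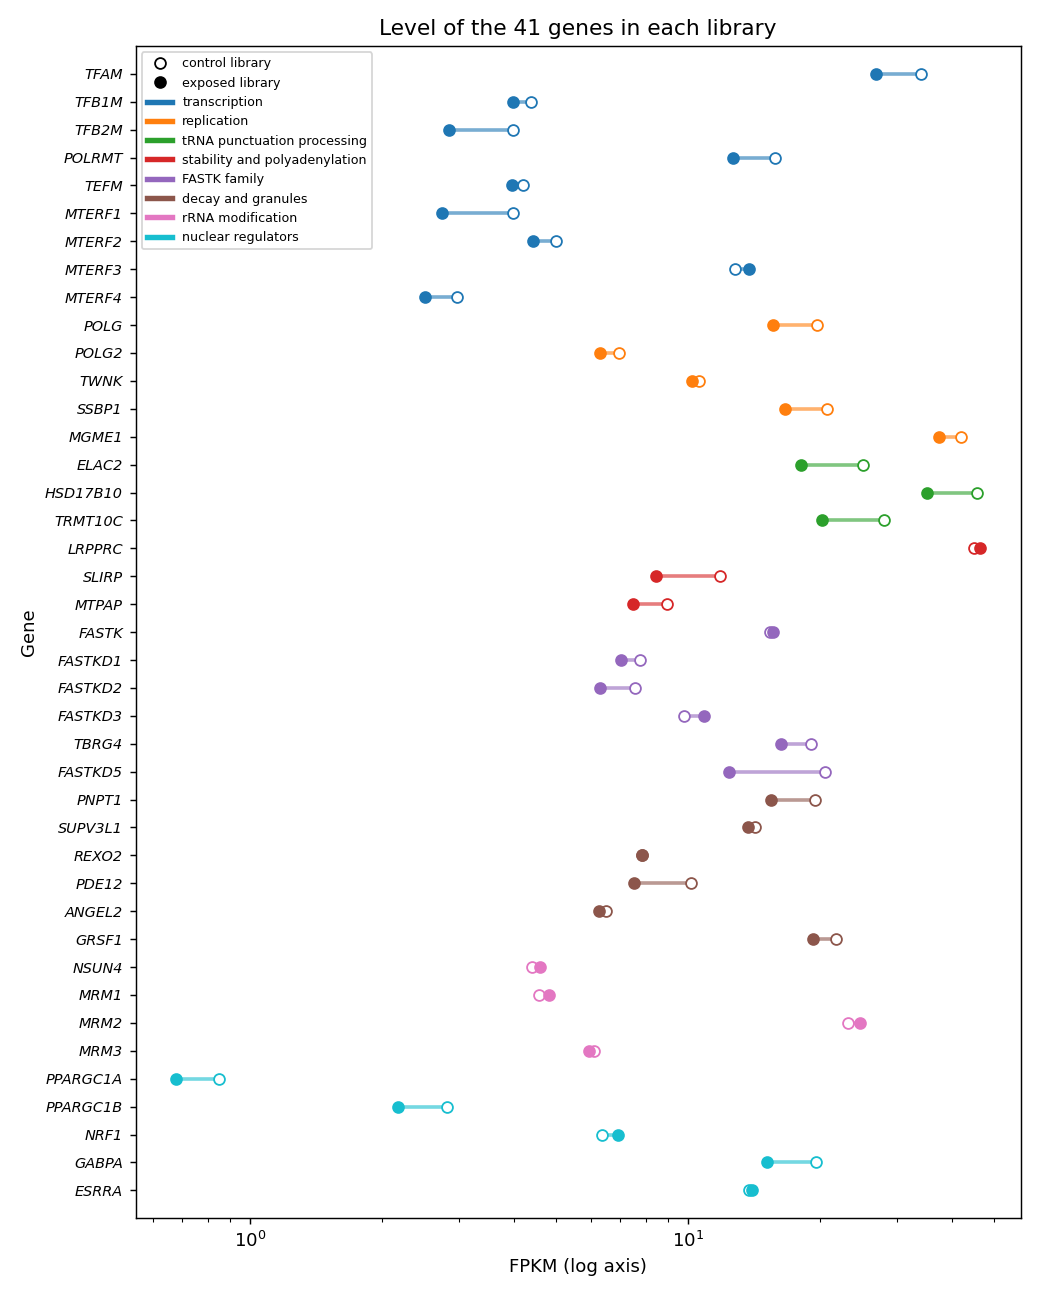
FPKM (log axis) of the 41 genes in the control library (open circles) and the exposed library (filled circles), 1 row per gene, coloured by role. Levels span 0.677 FPKM for PPARGC1A to 46.5 FPKM for LRPPRC, and most filled circles lie left of the open ones.

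Of 9 genes of the transcription machinery and their paralogues (TFB1M and MTERF4 act mainly on the ribosome), 8 lay below the median of all genes. TFAM, the high-mobility-group protein that packages mitochondrial DNA and bends its promoters (ENSG00000108064, GRCh38 chromosome 10, 58385022 to 58399221), measured 34.1 FPKM without and 26.8 FPKM with exposure. Its ratio was 0.788 (0.746 to 0.831) from 3056 and 2373 reads. POLRMT, the single-subunit RNA polymerase (chromosome 19, 617224 to 633604), had 15.8 and 12.7 FPKM, a ratio of 0.8001 (0.736 to 0.869). TFB2M, which melts the promoter with the polymerase, had 3.99 and 2.85 FPKM from only 118 and 83 reads, so its ratio of 0.714 has a wide interval (0.532 to 0.953). These 3 initiation genes all had intervals below 1, as did 36.0% of all measured genes.

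The elongation factor gene TEFM was nearly level at 4.21 and 3.95 FPKM (ratio 0.940, 0.772 to 1.14). TFB1M, a paralogue of TFB2M that dimethylates the small ribosomal RNA, had 4.39 and 3.99 FPKM (0.909, 0.735 to 1.12). The 4 MTERF genes, whose products share a helical repeat fold that binds nucleic acid, differed among themselves. MTERF1, named for termination after the ribosomal RNA genes, had 3.99 and 2.75 FPKM and a ratio of 0.689 (0.576 to 0.823), the second lowest of the 41. MTERF4, which brings NSUN4 to the ribosome, had 2.96 and 2.51 FPKM (0.846, 0.738 to 0.970), although 51.0% of its exon length overlaps SNED1 on the other strand. MTERF2 stood at 4.98 and 4.42 FPKM (0.888, 0.747 to 1.05), and MTERF3, a repressor of mitochondrial transcription in mice, at 12.8 and 13.8 FPKM (1.07, 0.930 to 1.24). The level of MTERF3 per MTERF1 went from 3.21 to 5.01 between the libraries, a factor of 1.56 (1.24 to 1.97) that does not depend on the scaling. This pair and those below were chosen after the values were seen, so an interval that excludes 1 is no test.

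The replication genes lay low as well, all 5 at or below the median of all genes, with none at the smaller step. POLG, the catalytic subunit of the DNA polymerase (chromosome 15, 89305198 to 89334861), had 19.7 and 15.6 FPKM, a ratio of 0.791 (0.739 to 0.848). Its processivity subunit gene POLG2 had 6.97 and 6.29 FPKM (0.902, 0.776 to 1.05). The level of POLG per POLG2 went from 2.83 to 2.48, a factor of 0.878 whose interval of 0.744 to 1.04 includes 1. SSBP1 had 20.8 and 16.6 FPKM (0.798, 0.742 to 0.859) and the single-strand nuclease gene MGME1 41.9 and 37.4 FPKM (0.891, 0.829 to 0.959). The helicase gene TWNK, at 10.6 and 10.2 FPKM (0.962, 0.864 to 1.07), was close to the median of all genes, and its log2 ratio of -0.05 was above 0 with equal FPKM sums, library totals alone, or scaling without the most abundant genes.

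The enzymes that cut transfer RNAs out of the precursor gave the lowest group median, -0.45 in log2 over 3 genes, or -0.40 relative to all genes. ELAC2, the RNase Z that cuts at the tail of each transfer RNA (ENSG00000006744, chromosome 17, 12992391 to 13018187), had 25.1 and 18.1 FPKM and a ratio of 0.720 (0.678 to 0.765). TRMT10C, the methyltransferase subunit of mitochondrial RNase P (ENSG00000174173, chromosome 3, 101561862 to 101566446), had 28.0 and 20.2 FPKM and a ratio of 0.721 (0.648 to 0.801). HSD17B10, the dehydrogenase that serves as its partner subunit (chromosome X, 53431258 to 53434373), had 45.7 and 35.1 FPKM and a ratio of 0.769 (0.692 to 0.855). The nuclease subunit, listed under the older symbol KIAA0391 and not one of the 41, had 1.35 and 0.736 FPKM from 151 and 81 reads, a ratio of 0.544 (0.410 to 0.717). All 4 genes had intervals below 1, as did 36.0% of all measured genes. With equal FPKM sums the median of ELAC2, TRMT10C and HSD17B10 was -0.33, or -0.39 relative to all genes.

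Stabilisers of the messages diverged. LRPPRC, the repeat protein that binds mitochondrial messages (chromosome 2, 43886508 to 43996005), had 45.0 and 46.5 FPKM from 7021 and 7155 reads, a ratio of 1.03 (1.0002 to 1.07). Its obligate partner gene SLIRP (chromosome 14, 77708071 to 77761104) had 11.9 and 8.44 FPKM from 499 and 350 reads, a ratio of 0.712 (0.619 to 0.817). LRPPRC per SLIRP therefore went from 3.79 in the control to 5.51 in the exposed library, a factor of 1.45 (1.26 to 1.68). Of SLIRP's exon length 14.9% overlaps other genes, SNW1 with 1348 and 1153 reads and C14orf178 with 0 reads in both libraries. The poly(A) polymerase gene MTPAP had 8.96 and 7.48 FPKM (0.835, 0.767 to 0.909).

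**Figure D3:**
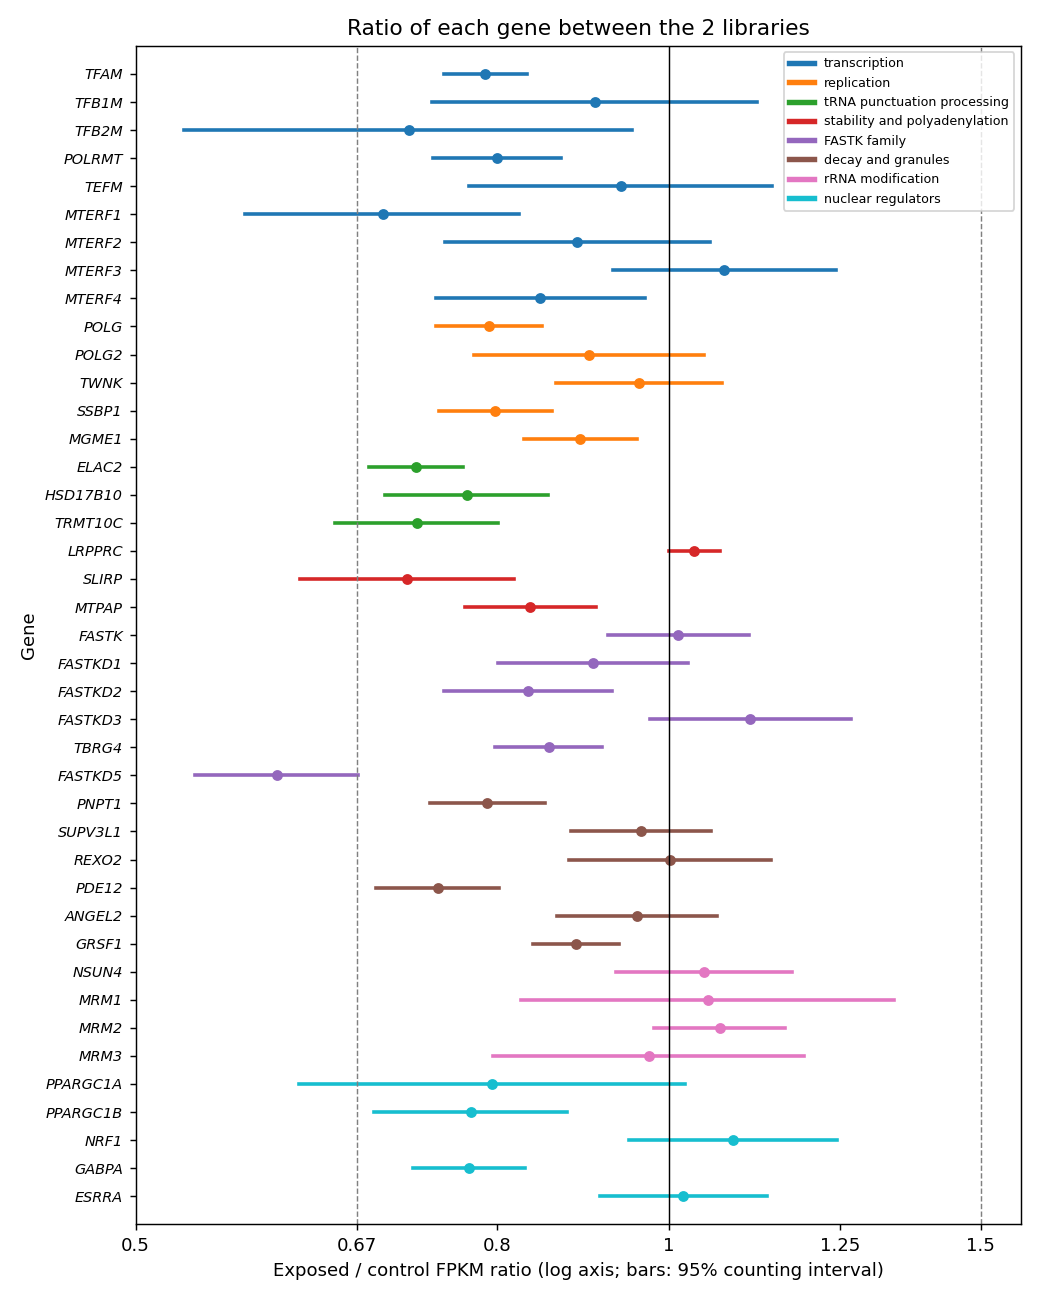
Exposed over control FPKM ratio (log axis) of each of the 41 genes with its exact 95% counting interval, coloured by role; the solid line marks 1 and the dashed lines 1.5-fold in either direction. FASTKD5, at 0.601, is the lowest point, the 3 transfer RNA processing genes lie between 0.720 and 0.769, and the 4 ribosomal RNA modification genes straddle 1.

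The FASTK family held both ends of the set. FASTKD5, needed to mature messages that no transfer RNA flanks (ENSG00000215251, chromosome 20, 3146519 to 3159897), measured 20.6 FPKM without and 12.4 FPKM with exposure, from 947 and 561 reads. Its ratio was 0.601 (0.540 to 0.668) and its log2 ratio -0.69, which placed it 123rd from the lowest of the 11409 measured genes. Of its exon length 4.59% is shared with UBOX5 on the same strand, which had 235 and 223 reads. FASTKD3, at 9.80 and 10.9 FPKM, had the highest ratio of the 41, 1.11 (0.976 to 1.27). The level of FASTKD3 per FASTKD5 went from 0.476 to 0.880, a factor of 1.85 (1.56 to 2.19). It sets the highest ratio of the set against the lowest, a choice made after the values were seen.

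The other members of the family lay between. TBRG4, also called FASTKD4, which stabilises a subset of mitochondrial messages, had 19.1 and 16.3 FPKM (0.855, 0.798 to 0.917). FASTKD2, which serves assembly of the large ribosomal subunit, had 7.57 and 6.30 FPKM (0.832, 0.746 to 0.928). FASTKD1 had 7.75 and 7.02 FPKM (0.906, 0.801 to 1.02), and FASTK, of which a mitochondrial form maintains the light-strand message MT-ND6, 15.4 and 15.6 FPKM (1.01, 0.924 to 1.11). Intervals lay below 1 for 3 of the 6 and above 1 for 0, beside 36.0% and 21.5% of all measured genes.

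Decay and granule genes were mixed. PNPT1, the polynucleotide phosphorylase of the mitochondrial degradosome, had 19.5 and 15.4 FPKM, a ratio of 0.790 (0.733 to 0.851). Its helicase partner gene SUPV3L1 had 14.2 and 13.7 FPKM (0.964, 0.881 to 1.06), and PNPT1 per SUPV3L1 went from 1.37 to 1.12, a factor of 0.819 (0.728 to 0.922). PDE12, a mitochondrial deadenylase, had 10.2 and 7.52 FPKM from 1453 and 1061 reads, a ratio of 0.741 (0.684 to 0.802). GRSF1, an RNA-binding protein of mitochondrial RNA granules, had 21.8 and 19.3 FPKM (0.886, 0.839 to 0.937). REXO2, which removes the shortest RNA fragments, was level at 7.86 and 7.87 FPKM (1.001, 0.878 to 1.14). ANGEL2, an RNA end phosphatase, had 6.51 and 6.25 FPKM (0.9596, 0.865 to 1.06). The log2 ratios of SUPV3L1 and ANGEL2, both -0.05, were above 0 with equal FPKM sums, library totals alone, or scaling without the most abundant genes.

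The 4 genes grouped here as ribosomal RNA modifiers, NSUN4, MRM1, MRM2 and MRM3, each exceeded the median of all measured genes. Their own median log2 ratio was 0.06, and 4 of 4 intervals included 1 at the deposited scaling. With equal FPKM sums the median was 0.16, or 0.10 relative to all genes. TFB1M, which also modifies ribosomal RNA but is described above with its paralogue, lay at -0.06 relative to that median. MRM2, a ribose methyltransferase of the large ribosomal RNA (chromosome 7, 2234231 to 2242198), had 23.2 and 24.7 FPKM (1.07, 0.981 to 1.16). MRM1 had 4.58 and 4.81 FPKM (1.05, 0.825 to 1.34) and MRM3, of whose exon length 34.9% overlaps GLOD4 on the other strand, 6.08 and 5.93 FPKM (0.974, 0.795 to 1.19). NSUN4, the cytosine methyltransferase that pairs with MTERF4, had 4.39 and 4.60 FPKM (1.05, 0.934 to 1.17). MRM2 per ELAC2, a pair at similar levels per length chosen after the values were seen, went from 0.923 to 1.37. The factor was 1.48 (1.34 to 1.65).

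**Figure D4:**
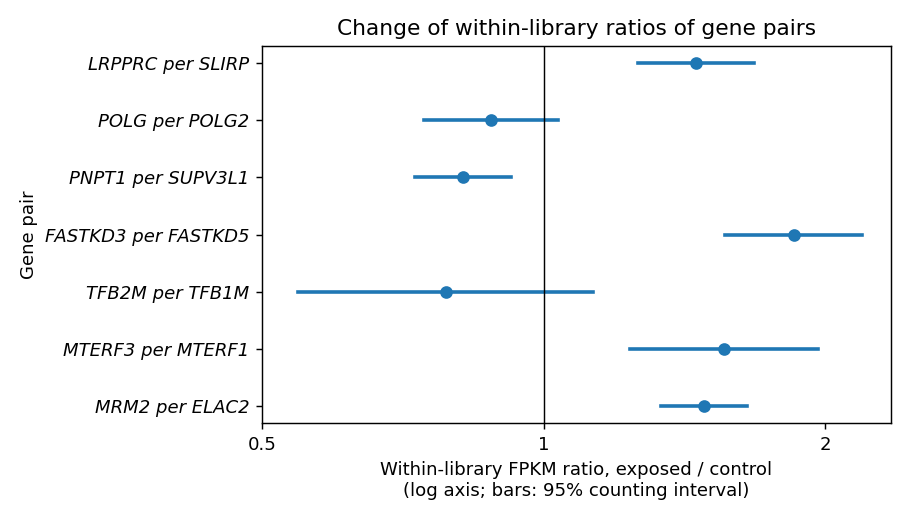
Factor by which the within-library FPKM ratio of 7 gene pairs differed between the exposed and the control library (log axis), with exact 95% counting intervals; pairs were chosen after the values were seen. FASTKD3 per FASTKD5 stands at 1.85 and LRPPRC per SLIRP at 1.45, and the intervals of POLG per POLG2 and TFB2M per TFB1M include 1.

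Among the nuclear regulators GABPA, the DNA-binding subunit of the ETS factor, was lower, and NRF1 was not. GABPA (chromosome 21, 25734570 to 25772460) had 19.6 and 15.1 FPKM from 1705 and 1297 reads, a ratio of 0.772 (0.717 to 0.830). Of its exon length 7.61% overlaps ATP5PF on the other strand, whose reads were 885 and 740. NRF1 (chromosome 7, 129611714 to 129757082) had 6.35 and 6.90 FPKM (1.09, 0.949 to 1.24) and the orphan receptor gene ESRRA 13.8 and 14.0 FPKM (1.02, 0.914 to 1.14). The coactivator gene PPARGC1B had 2.81 and 2.17 FPKM (0.773, 0.682 to 0.876). PPARGC1A, which was under the level for measured genes, had 148 and 116 reads (0.795, 0.618 to 1.02).

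Related genes outside the set, in 5 lists, had medians between -0.12 and -0.03. Of 23 genes for RNA binding and mitochondrial ribosome assembly, 5 were at or under the smaller step (background 13.5%) and 0 were higher by it (background 8.98%), with a median of -0.03. C1QBP, which encodes an abundant matrix protein, had the lowest log2 ratio of them, -0.53, at 194 and 135 FPKM. The log2 ratios of MPV17L2, the helicase gene DHX30 and MALSU1 were -0.48, -0.42 and -0.40. Of 21 genes of transfer RNA modification and maturation, 4 were lower (background 13.5%) and 1 higher (background 8.98%) by the step, with a median of -0.12. Besides KIAA0391 the lower genes were QTRT2 (0.739, 0.676 to 0.808), TRMU (0.743, 0.685 to 0.805) and NSUN2 (0.769, 0.739 to 0.801), the last named only because it completes the count. The higher gene was MTO1 (1.54, 1.36 to 1.74), an enzyme of wobble uridine modification.

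The 14 further genes of mitochondrial DNA maintenance had a median of -0.04, with 0 lower (background 13.5%) and 2 higher (background 8.98%) by the smaller step. These were the primase-polymerase gene PRIMPOL (5.63 and 8.16 FPKM; 1.45, 1.23 to 1.71) and the inner membrane gene MPV17 (4.99 and 6.57 FPKM; 1.32, 1.16 to 1.49), while ATAD3B (0.793, 0.730 to 0.860) and DNA2 (0.812, 0.740 to 0.892) were lower by less than the step. Of the 14 measured of 15 genes of nucleotide supply, 3 were lower (background 13.5%) and 1 was higher (background 8.98%) by the step, with a median of -0.08. The ribonucleotide reductase genes RRM2 (0.6697, 0.637 to 0.704) and RRM1 (0.742, 0.717 to 0.768), which supply DNA synthesis mainly in dividing cells, and ABAT (0.630, 0.521 to 0.761) were lower. TK2, the mitochondrial thymidine kinase gene, stood at 1.37 and 2.08 FPKM (1.52, 1.24 to 1.87). Of 16 measured coregulators of biogenesis, 2 were lower (background 13.5%) and 0 higher (background 8.98%) by the step, with a median of -0.05. HCFC1, a partner of ETS and other promoter-bound factors (0.761, 0.732 to 0.790), KAT2A (0.787, 0.738 to 0.838), NFE2L2 (1.27, 1.16 to 1.39) and PRKAA1 (0.830, 0.786 to 0.877) had the largest values.

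The RNAs on which these proteins act were also in the table. The 13 mitochondrially encoded messages had a median log2 ratio of -0.60. Their lowest values were those of MT-ATP6 (7262 and 3687 FPKM) and its neighbour MT-CO3 (7709 and 3932 FPKM). MT-ND2 and MT-ND3 were nearly as low (ratios of 0.573 and 0.584), and MT-CO1 was the least low at 0.872. The other messages had ratios from 0.608 (MT-CYB) to 0.763 (MT-ND1). By contrast, MT-RNR2, the large ribosomal RNA, stood at 4236 and 7566 FPKM, and MT-RNR1, the small one, at 1244 and 1626 FPKM. Whether these values relate to those of FASTKD5 or the transfer RNA processing genes was not tested.

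**Figure D5:**
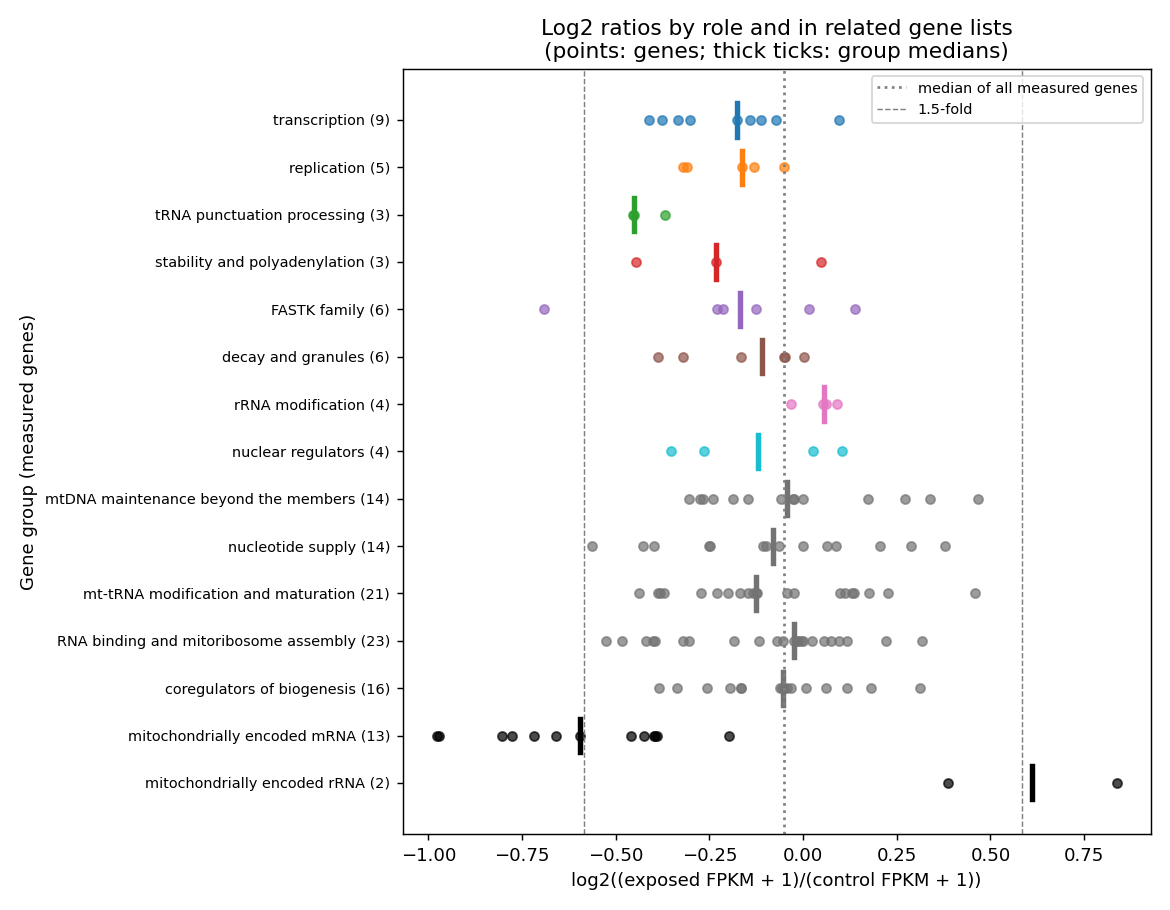
Log2 ratios with a pseudocount of 1 FPKM (horizontal axis) of single genes (points) and group medians (thick ticks) for the 8 roles of the set (coloured), the 5 related lists (grey) and the mitochondrially encoded RNAs (black); the dotted line marks the median of all measured genes and dashed lines 1.5-fold. Transfer RNA processing has the lowest median of the roles at -0.45 and ribosomal RNA modification the highest at 0.06, and the mitochondrially encoded messages lie lower still at -0.60.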

How the data were processed

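RNA sequencing of 1 control and 1 exposed library was analysed. The authors deposited 1 FPKM value per gene and library, per the file headers. The aligner, counter and strand setting: not given in the sources used here. Mouse builds (GRCm38, mm10) appear in the submitters' processing notes, but all 58735 genes have the start and end of GENCODE release 29 on GRCh38, the build used for coordinates.

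FPKM multiplied by gene length came in whole steps (within 0.001 reads) for 100% of values above 0, which gave read counts. The totals behind the deposited FPKM were the read sums times 0.971 and 1.03, so the authors' values were already scaled between libraries. Ratios carry exact Clopper-Pearson 95% intervals (scipy 1.17.1) of the reads, for counting error only. They leave out variation between libraries. The values carry no molecular identifiers, so each read was counted as independent. No p-value was computed, as each group has 1 library. The call was 1.5-fold on log2(FPKM + 1) among measured protein-coding genes (mean FPKM of 1 or more). The procedure was run on simulated reads that held counting error only, which cannot show how libraries vary. Without strand, overlapping genes cannot be told apart, so exon overlaps are given above for MTERF4, SLIRP, FASTKD5, MRM3 and GABPA. Of POLG's exon length 7.66% overlaps FANCI (5159 and 4879 reads), and of ESRRA's 9.37% overlaps TRMT112 (1392 and 1408 reads). For MTERF2 it is 11.6% with TMEM263 (1463 and 1418 reads). TEFM overlaps over 26.1%, of which 16.8% is with AC130324.3 (0 reads) and 9.34% with ADAP2 (151 and 130 reads). TFB1M shares 7.86% with TIAM2 (278 and 249 reads). MTPAP overlaps over 33.4%, with genes that had 0 reads. Smaller overlaps of other members are not listed. The members, lists and thresholds were chosen with earlier results of these data known. All 41 members are named, and of each other list the 4 measured entries with the largest absolute log2 ratio. Gene pairs and the smaller step were chosen after the values were seen. Alternatives covered pseudocounts, filters, scalings, thresholds and gene classes.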

Additional observations from a re-analysis of the deposited data

How the results depend on the processing

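No paired analysis was possible because there is 1 library per group. FASTKD5 was the 1 gene at least 1.5-fold lower, and the count was 0 with a pseudocount of 5, with equal FPKM sums and at 2-fold, and 10 at the step of -0.3219 in log2. The count of genes 1.5-fold higher was 0 under every setting run. The 10 genes at the smaller step became 5 with a pseudocount of 5, 4 with equal FPKM sums, 5 with library totals alone and 6 with scaling without the most abundant and mitochondrially encoded genes. In the same order, the share of all measured genes at or under the step fell from 13.5% to 5.96%, 6.78%, 8.49% and 8.89%. Each setting acts on all genes, and no cause of the lower values was tested. The set median ran from -0.17 to -0.04, and its distance from the median of all measured genes from -0.14 to -0.07, below 0 under all 10 alternatives. Between 27 and 31 genes lay below that median, except 19 of 31 at a mean FPKM of at least 5. Over 287 gene values under other pseudocounts and scalings, 273 shifted by no more than the reach of the gene's own counting interval and 14 shifted further. The reads are the same under every setting and the interval narrows with more reads, so these counts are no measure of stability. The signs of TEFM, TWNK, SUPV3L1, ANGEL2 and MRM3 were opposite with equal FPKM sums. Without the 10 measured genes of which at least 5% of the exon length overlaps another gene, 30 remained, with the same median of -0.16 and 8 at the smaller step. Counting intervals were widest relative to the ratio for TFB2M, PPARGC1A and MRM1. The smaller step as a result of its own, the distance from the median and the removal of overlapping genes were added after seeing the data.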

Other observations

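Some genes of the set with few exons lay low. Of the 5 measured genes with at most 3 exons in any protein-coding transcript of GENCODE release 29, FASTKD5, TRMT10C and PDE12 were at or under a log2 ratio of -0.3219, MTERF2 stood at -0.14 and MRM2 at 0.09, with a median of -0.39. The other 35 had a median of -0.16, with 7 at or under that log2 ratio of -0.3219. All 1214 measured genes with at most 3 exons had a median of -0.08, with 266 at or under it. The 10192 with more had a median of -0.05, with 1269 at or under it. The split was chosen after the values were seen and was not tested.

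Processed pseudogenes named after members held few reads. POLRMTP1 had 27 and 20 reads beside 1297 and 1023 for POLRMT, and GABPAP 34 and 28 beside 1705 and 1297 for GABPA.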
